A study of Mus musculus with 6 samples.

Results

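The genes of oxidative phosphorylation were compared between the LS1 line of Longshanks mice and Control mice in the proximal end of the tibia. They were chosen by symbol, taking the protein-coding genes of the mitochondrial genome together with the nuclear genes whose symbols start with Nduf (other than Ndufaf), Sdha to Sdhd, Uqcr, Cyc1, Cox4 to Cox8 or Atp5, and keeping those with a mean value of at least 20 over the 6 libraries. This gave 101 of the 47729 genes in the table, 13 from the mitochondrial genome and 88 from the nuclear genome. Of 103 protein-coding genes with a matching symbol, *Cox7b2* and *Cox8c* were left out, with mean values of 0.647 and 2.54, while the lowest genes kept were *Cox8b* at 69.8 and *Cox6a2* at 70.3. The prefix Sdha also takes in 4 assembly factors of complex II, *Sdhaf1* to *Sdhaf4*, which were kept and are named as such. *Cox7a2l*, a factor that joins respiratory complexes into supercomplexes, and *Atp5s*, known as factor B of the ATP synthase, were also taken in by their symbols and are not classed here as core or accessory subunits. The 11 pseudogenes with matching symbols were not members.

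Each group held 3 mice of 14 days from different families of generation 13 of the breeding experiment. LS1 is an outbred line selected for tibiae that are long for the body mass, and Control is a line of the same ICR (CD-1) background bred at random. No transgene, drug or deletion was involved. Both proximal epiphyses of a mouse were pooled into 1 library of polyadenylated RNA, so cartilage, bone and marrow were measured together, and fewer cells of a type cannot be told apart from less RNA per cell. LS2, the other Longshanks line, was not analysed here, so a difference between LS1 and Control belongs to 1 selected line, in which selection and drift cannot be told apart.

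Oxidative phosphorylation is the work of 5 protein complexes in the inner mitochondrial membrane. Complexes I to IV pass electrons from NADH and succinate to oxygen and pump protons, except complex II, which pumps none, and complex V uses the proton gradient to make ATP. The parts of complexes I, III, IV and V that lie in the membrane include subunits encoded in the mitochondrial DNA, and all other subunits are nuclear genes whose proteins are imported. Nuclear subunits are divided into core subunits, which carry the chemistry and have bacterial counterparts, and accessory (supernumerary) subunits, which surround the core. Growth plate chondrocytes lie in cartilage without blood vessels and are known for a strong reliance on glycolysis.

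Many nuclear genes of respiration are known targets of the transcription factors NRF1 and YY1. Promoter windows from RefSeq on GRCm38, 250 bases before to 50 bases after the start site, were matched for 72 of the 88 nuclear members. The NRF1 type motif, GCGC and then TGCGC with any 1 base between them, read on both strands, stood in the windows of 19 of these 72 genes (26.4%) and of 7.17% of 17492 protein-coding genes. AAGATGGCG, the YY1 type motif, also on both strands, stood in 7 of them (9.72%) and in 2.14% of the protein-coding genes. Of the 14 nuclear members that were lower in LS1 at an unadjusted p under 0.05 (below), 12 had a window, and 4 of these 12 (33.3%) held the NRF1 type motif. A match describes the letters and is not a measured binding site. The sites of those 4 genes follow, because they include the member with the largest difference, with the motif in capitals, in the direction of the gene, all of which lie on the minus strand.
Ndufs6, NRF1 type, chr13:73328479-73328508: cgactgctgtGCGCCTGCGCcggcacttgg
Ndufs6, YY1 type, chr13:73328433-73328462: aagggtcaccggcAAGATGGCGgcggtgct
Ndufa5, NRF1 type on the other strand, chr6:24527697-24527726: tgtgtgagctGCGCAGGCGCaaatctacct
Atp5k, NRF1 type, chr5:108434430-108434459: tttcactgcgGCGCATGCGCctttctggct
Atp5o, NRF1 type, chr16:91931602-91931631: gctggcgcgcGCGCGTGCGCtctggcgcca

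In *Ndufs6* the NRF1 type motif began 16 bases before the start site and the YY1 type motif 34 bases after it, and it was the only 1 of the 12 lower genes with a YY1 type motif.

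A second set of sequences bears on how the mitochondrial genes could be measured. The nuclear genome holds a stretch on chromosome 1 that copies part of the mitochondrial DNA, and GENCODE M21 annotates 7 unprocessed pseudogenes there that match *mt-Co1*, *mt-Co2*, *mt-Atp6*, *mt-Co3*, *mt-Nd3*, *mt-Nd4l* and *mt-Nd4*. Over their whole length the copies of *mt-Co2* (681 bases), *mt-Atp6* (678), *mt-Co3* (783), *mt-Nd4l* (294) and *mt-Nd4* (876) were identical to the gene. *Gm28438*, the copy of *mt-Nd3*, had 1 mismatch in 345 bases, and *Gm29216*, the copy of *mt-Co1*, had 6 mismatches in 492 bases. Stretches of 60 bases of 3 pairs are given on GRCm38 in the direction of the gene, with mismatched bases in capitals. They show how few bases differ between the members of a pair in the reference genome. The sequence of the ICR mice themselves was not compared, so whether these bases tell gene from copy in them is not known.
mt-Co2, chrM:7323-7382 (plus strand): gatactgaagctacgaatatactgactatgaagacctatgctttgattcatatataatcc
Gm28661, chr1:24615196-24615255 (minus strand): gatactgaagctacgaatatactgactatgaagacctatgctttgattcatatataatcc
mt-Nd3, chrM:9459-9518 (plus strand): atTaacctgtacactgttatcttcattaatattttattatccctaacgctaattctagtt
Gm28438, chr1:24613060-24613119 (minus strand): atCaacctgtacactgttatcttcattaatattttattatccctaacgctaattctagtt
mt-Co1, chrM:6381-6440 (plus strand): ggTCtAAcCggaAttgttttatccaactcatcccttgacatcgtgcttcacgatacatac
Gm29216, chr1:24616138-24616197 (minus strand): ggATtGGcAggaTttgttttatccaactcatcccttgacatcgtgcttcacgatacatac

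The libraries held 68803249 to 76581954 reads in Control and 82227711 to 88745366 in LS1, and LS1 was thus the deeper group throughout. LS1 replicate 1 stood apart in its mitochondrial reads, and the medians of the mitochondrial genes are also given without it. Markers of cartilage, bone and marrow were all present, with no listed marker gene of any cell type at a mean value under 1. The summed chondrocyte markers took 3.75% to 4.35% of the reads in Control and 4.89% to 5.58% in LS1, with 13 of 14 above 0 in log2 fold change. The erythroid markers took 0.621% to 0.806% and 0.423% to 0.692%, with 13 of 13 below 0, and the B cell markers 0.0746% to 0.0765% and 0.0439% to 0.0665%, with 10 of 11 below 0. The macrophage markers took 0.0472% to 0.0666% in Control and 0.0630% to 0.0891% in LS1, with 9 of 10 above 0, and the neutrophil markers 0.346% to 0.476% and 0.427% to 0.504%, with 10 of 11 above 0. The part of these cell types in the differences below was not tested.

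No member differed between LS1 and Control at an adjusted p-value under 0.05 in the limma test on log2(value + 1), in which 14 of 19308 genes did (0.0725%). The lowest adjusted p-value of a member was 0.125, for *Ndufs6*. At an unadjusted p under 0.05, 14 members were lower in LS1 and 2 were higher (13.9% and 1.98% of the members), beside 5.86% lower and 7.08% higher over all genes tested. All 16 were nuclear genes. The groups did not overlap for 11 members that were lower and 5 that were higher in LS1 (8.94% and 10.3% of all genes tested). By edgeR and limma-voom, as by limma, 0 members passed. DESeq2, the tool of the study's methods, passed 2.51% of the genes it adjusted (0.991% lower and 1.52% higher in LS1) and 3 members, *Ndufs6*, *Cox6b1* and *Ndufa5*, all lower in LS1. Members lower at an unadjusted p under 0.05 numbered 7 without Control replicate 3, 9 without LS1 replicate 2 and 24 without LS1 replicate 3, and those higher numbered 4 without Control replicate 1, 6 without LS1 replicate 1, and 1 when Control replicate 2, Control replicate 3 or LS1 replicate 3 was omitted. Without LS1 replicate 3, 4 members passed the adjusted threshold (*Ndufs6*, *Cox6b1*, *Uqcrq* and *Ndufa2*, all lower), when 1.68% of all genes did.

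Over the whole set the log2 fold changes were small. Of the 101 members 59 were below 0 and 42 above, with a median of -0.05, where 49.3% of all genes tested were below 0 and 50.7% above, with a median of 0.01. Nuclear members had a median of -0.07, with 56 below 0 and 32 above, and mitochondrial members a median of 0.12, with 3 below and 10 above. The sign of the mitochondrial median turned to -0.17 when LS1 replicate 1 was left out. Among nuclear members, the 22 core subunits had a median of -0.07 and the 60 accessory subunits one of -0.10. The lower members were mostly accessory, 13 of 14, and the exception was *Atp5o*. The accessory subunits thus had 21.7% of their genes lower at an unadjusted p under 0.05, and the core subunits 4.55%. Over all genes tested it was 5.86%. Within complex I these shares were 20.7% of 29 accessory and 0% of 7 core genes. In complex III they were 42.9% of 7 and 0% of 2, and in complex V 14.3% of 7 and 11.1% of 9. The median in complex I was lower for core (-0.18) than for accessory genes (-0.06). Complex IV had no nuclear core gene and complex II no accessory one, so class and complex are mixed.

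**Figure D1:**
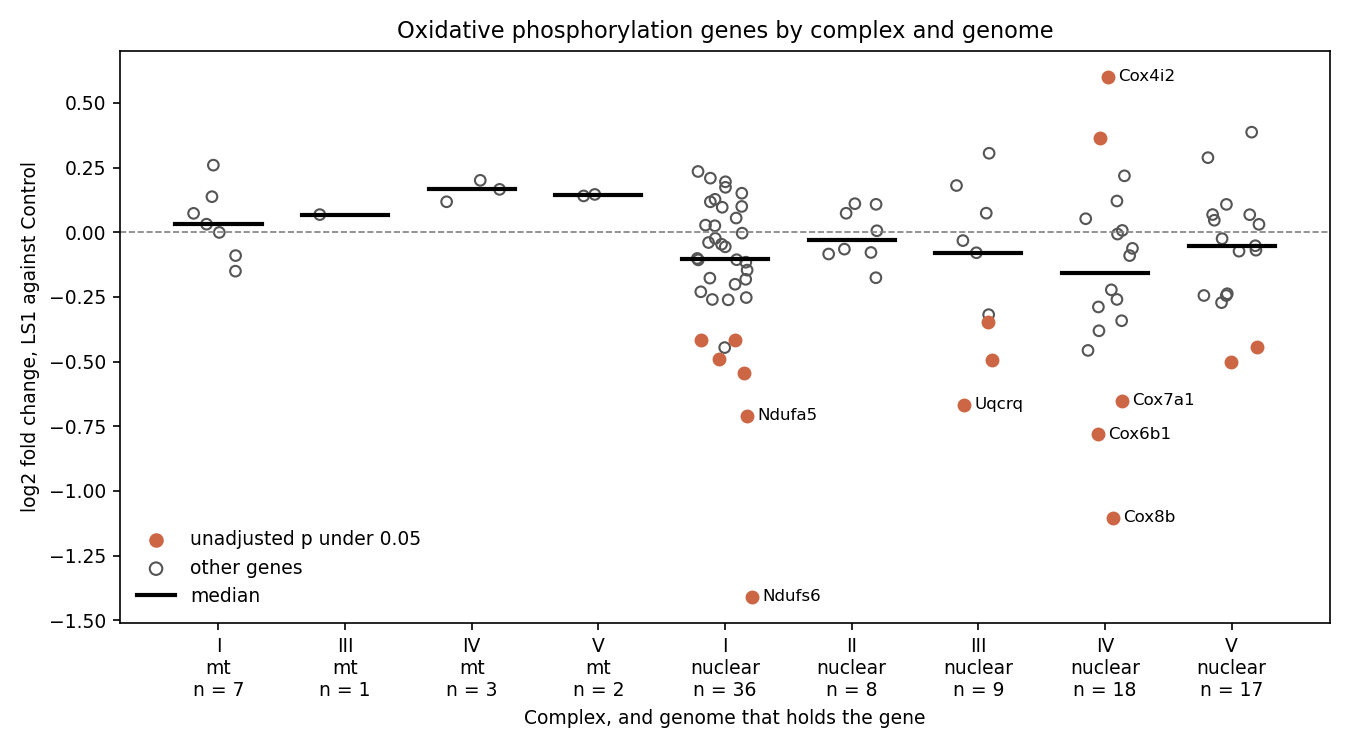
Log2 fold change (LS1 against Control, y axis) of each of the 101 genes, arranged along the x axis by complex and by the genome that holds the gene. Filled points had an unadjusted limma p under 0.05, open points did not, and black bars are medians. All 13 mitochondrial genes lie between -0.15 and 0.26, whereas nuclear genes reach from -1.41 for *Ndufs6* to 0.60 for *Cox4i2*.

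Complex I takes electrons from NADH, and its nuclear part was measured through 36 genes. Of these 24 had a log2 fold change below 0 and 12 above, with a median of -0.10, which was 0.00 without LS1 replicate 2. At an unadjusted p under 0.05, 6 were lower in LS1 and 0 were higher. The normalised read count of *Ndufs6*, an accessory subunit of the arm that reaches into the matrix, was 3271, 3941 and 4942 in Control mice and 1889, 957 and 1878 in LS1 mice. Every LS1 mouse was thus well under every Control mouse, with means of 4051 ± 841 (SD, n = 3) in Control and 1575 ± 535 in LS1. Its log2 fold change of -1.41 (SE 0.27) had an adjusted p of 0.125 by limma, 0.164 by edgeR and 4.38e-05 by DESeq2, and over the alternatives to the limma fit the log2 fold change stayed between -1.57 and -1.08 with adjusted p-values from 4.38e-05 to 0.349.

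*Ndufs6* lies on chromosome 13 of GRCm38 (73319838 to 73328542, minus strand) and its exons overlap those of *Mrpl36*, a gene of the mitochondrial ribosome on the opposite strand. Whether strand was used in the counting is not given in the sources used here. The neighbour itself differed little, with 2702, 2910.1 and 3084 in Control and 2678, 2726 and 2835 in LS1 and a log2 fold change of -0.08 (SE 0.13). *Ndufs6b*, a processed copy of *Ndufs6* on chromosome 7, had values of 10.1, 11.1 and 19.9 in Control and 13.3, 18.3 and 32.6 in LS1, and the gene and its copy summed gave a log2 fold change of -1.39.

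*Ndufa5*, another accessory subunit of the matrix arm, was counted at 5005, 6785 and 8152 in Control and at 4675, 3569.8 and 3778 in LS1. The highest LS1 library was close below the lowest Control library, and the log2 fold change was -0.71 (SE 0.18, adjusted p = 0.213 by limma and 0.0205 by DESeq2). The other complex I genes under an unadjusted p of 0.05 were *Ndufa2* (log2 fold change -0.54), *Ndufb7* (-0.49), *Ndufv3* (-0.42) and *Ndufa13* (-0.42), all accessory subunits. Groups did not overlap for *Ndufa13*, with 3154, 3290.4 and 4249 in Control and 2434, 2725 and 2799 in LS1, while they did for the other 3. *Ndufa2* and *Ndufa13* also share exonic sequence with genes on the opposite strand, *Tmco6* and *Tssk6*.

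Core subunits of complex I varied less. All 7 nuclear core genes lay between -0.26 for *Ndufv1*, which holds the site that oxidises NADH, and 0.15 for *Ndufs8*, an iron-sulphur subunit, with 5 of 7 below 0 and 0 under an unadjusted p of 0.05. *Ndufs1*, the largest iron-sulphur subunit of the matrix arm, was counted at 13689.9, 13348 and 11772 in Control and at 13853, 14044 and 14117 in LS1. The LS1 libraries were all above the Control libraries, yet by a log2 fold change of 0.12 (SE 0.12) that the limma test did not separate from 0 (adjusted p = 0.713). Accessory genes above 0 were led by *Ndufb6* at 0.23 (SE 0.17) and *Ndufa8* at 0.21 (SE 0.13). *Ndufb6* overlaps *Smim27* on the opposite strand, and 31.6% of its stretches of 50 bases also occur in that gene. Over all 5 complexes, 33 members had exon overlap on the opposite strand, and 27 shared over 10% of their stretches of 50 bases with other genes.

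Complex II, succinate dehydrogenase, is the only complex made of nuclear subunits alone. Its 4 subunits and 4 assembly factors showed the least spread of the 5 nuclear sets, from -0.18 for the iron-sulphur subunit *Sdhb* to 0.11 for the assembly factor *Sdhaf3*, with a median of -0.03. The flavoprotein *Sdha* was counted at 18913, 18572 and 19133 in Control and at 16923, 17201 and 19379 in LS1. The groups overlapped, as they did for all 8 genes, and 0 were under an unadjusted p of 0.05 in either direction. The median was 0.01 without LS1 replicate 2.

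Complex III passes electrons from ubiquinol to cytochrome c. The median log2 fold change of its 9 nuclear genes was -0.08, and 3 accessory subunits were lower at an unadjusted p under 0.05. Values of *Uqcrq*, a small subunit that lies against cytochrome b, were 8468, 8589.6 and 12847 in Control and 5699, 5046 and 8119.6 in LS1. The groups did not overlap, although LS1 replicate 3 came near the lowest Control libraries, and the log2 fold change was -0.67 (SE 0.21, adjusted p = 0.258). *Uqcr11* had a log2 fold change of -0.49 and *Uqcrh*, the hinge protein next to cytochrome c1, one of -0.35, both with overlapping groups. In the other direction *Uqcrfs1*, the Rieske iron-sulphur protein, had a log2 fold change of 0.31 (SE 0.15, adjusted p = 0.412). The differences within complex III thus had both signs, and the median of the complex was 0.11 without LS1 replicate 1.

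Complex IV, cytochrome c oxidase, held both the widest range and most of the tissue isoforms. Of its 18 nuclear genes, which here include *Ndufa4*, *Ndufa4l2* and the supercomplex factor *Cox7a2l*, 12 were below 0 and 6 above, with a median of -0.16 that was -0.02 without LS1 replicate 1. At an unadjusted p under 0.05, 3 were lower (*Cox8b*, *Cox6b1* and *Cox7a1*) and 2 higher (*Cox4i2* and *Cox5a*). *Cox6b1*, a subunit on the outer face of the membrane where the oxidase pairs up, was counted at 4452, 5738 and 6647 in Control and at 3147, 2552 and 4161 in LS1. None of the LS1 libraries reached the lowest Control library, with a log2 fold change of -0.78 (SE 0.20, adjusted p = 0.206 by limma and 0.0198 by DESeq2). The paper also lists *Cox6b1* as lower in its RNA-seq. Its qPCR of growth plate alone, in mice of a later generation, gave no significant difference from Control in LS1 or LS2.

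*Cox4i2* was the member with the highest log2 fold change. It encodes the second form of subunit 4, known from lung and for its response to low oxygen, while *Cox4i1* encodes the common form. The values of *Cox4i2* were 2449, 3981 and 3659.96 in Control and 4794, 5416 and 4796 in LS1. Every LS1 library was above every Control library, with a log2 fold change of 0.60 (SE 0.18, adjusted p = 0.248 by limma and 0.104 by DESeq2), which was 0.39 without Control replicate 1, the lowest library. For *Cox4i1* the values were 22480.2, 21951 and 29850.4 in Control and 15772, 18991 and 24144 in LS1. Here the groups overlapped, and the log2 fold change was -0.34 (SE 0.18, adjusted p = 0.449).

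To compare the 2 forms of subunit 4 with each other, values were divided by the merged exon length in kb. On that scale the share of *Cox4i2* in the *Cox4* pair was 17.6%, 26.3% and 19.4% in Control and 37.4%, 35.9% and 28.1% in LS1. All LS1 libraries had a higher share than all Control libraries, at 33.8% ± 5.01 (SD, n = 3) against 21.1% ± 4.57, a difference of 12.7 percentage points with a two-sided exact permutation p of 0.1, the smallest that 3 against 3 mice allow. With the longest transcript as length the shares were 21.4% in LS1 and 12.5% in Control, so the size of the shares depended on the length used, while the LS1 libraries were above the Control libraries on both.

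**Figure D2:**
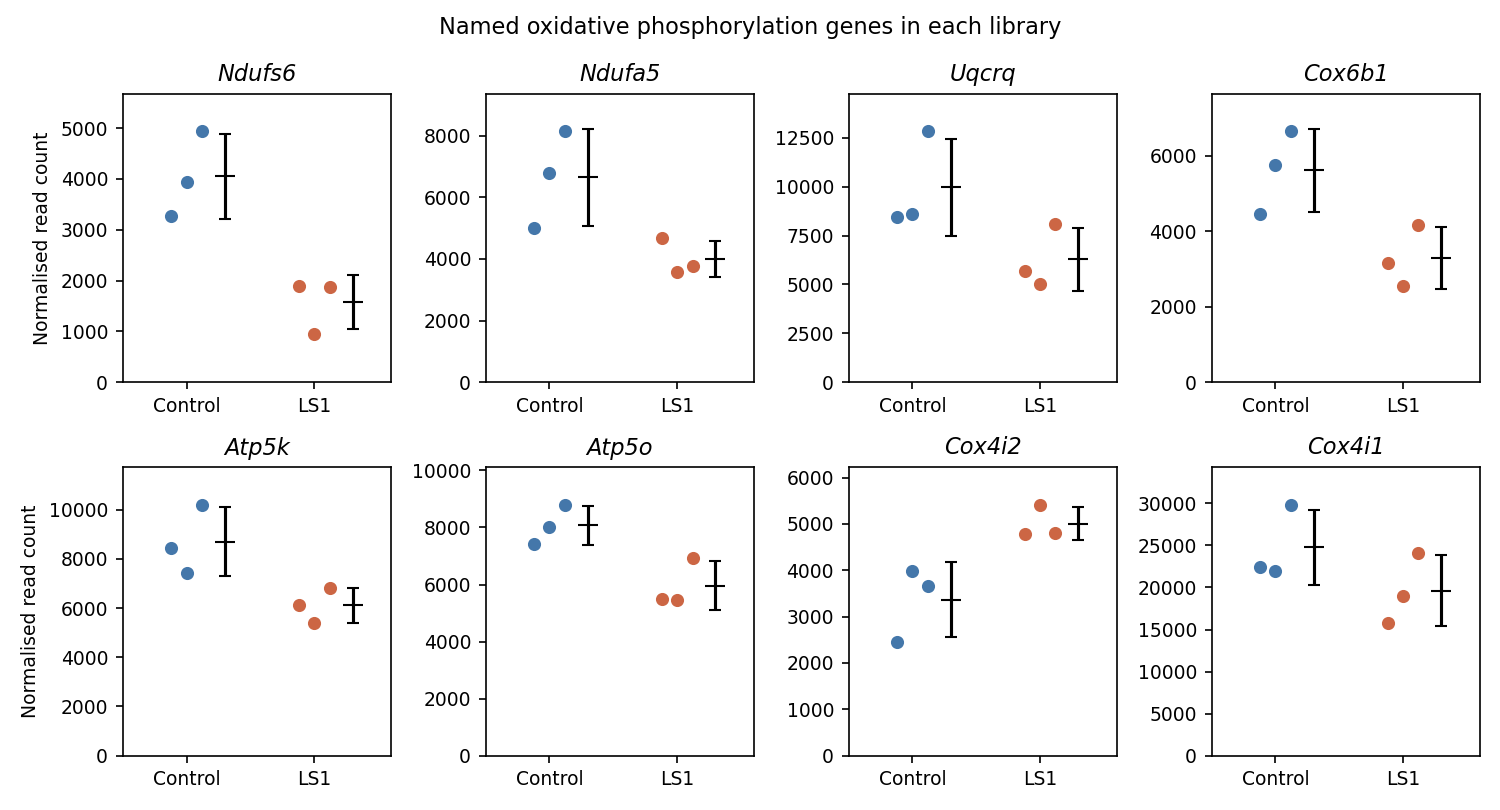
Normalised read count (y axis, from 0) of 8 genes in each of the 3 Control (blue) and 3 LS1 (orange) libraries. Points are libraries and the black bar with its error is the mean ± SD. The first 6 panels show LS1 libraries all below the Control libraries, from *Ndufs6* to *Atp5o*, while *Cox4i2* shows them all above, and *Cox4i1* shows the groups overlapping.

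The other 2 lower genes of complex IV are isoforms of heart and skeletal muscle and were weakly expressed. *Cox8b* had 176, 66.5 and 56.4 in Control and 40.9, 41.8 and 37.3 in LS1. All LS1 values were lower, but Control replicate 1 lay far above the rest, and the log2 fold change of -1.11 (SE 0.43, adjusted p = 0.318) was -0.60 without it. *Cox7a1* had 137, 108 and 181 in Control and 88.6, 74.8 and 103 in LS1, again without overlap (log2 fold change -0.65, SE 0.30, adjusted p = 0.383). *Cox6a2*, the third muscle isoform, had 92.8, 80.9 and 65.3 in Control and 34.3, 84.4 and 64.4 in LS1, with overlapping groups. The summed values of 19 skeletal muscle markers were 38242, 20935 and 16029 in Control and 9237, 22881 and 17204 in LS1, with 17 of 18 tested markers below 0. The highest sum was in Control replicate 1, also the highest library of *Cox8b*, and the lowest in LS1 replicate 1, also the lowest library of *Cox6a2*. *Cox7a1* did not follow the sums in this way, as its highest library was Control replicate 3, which had the lowest sum in Control, and its lowest was LS1 replicate 2, which had the highest sum in LS1. *Cox8b* was lowest in LS1 replicate 3. Of 6 tested markers of cardiac or slow muscle, 2 were below 0 and 4 above, with a median of 0.16. Of 6 tested markers of brown or white adipocytes, 3 were below 0 and 3 above, with a median of -0.01. The part of muscle or of adipocytes in these 3 genes was not tested.

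Within each subunit the muscle forms made up little of the transcript. Per kb, *Cox8b* was 2.49% ± 1.09 (SD, n = 3) of the *Cox8* set in Control and 1.06% ± 0.13 in LS1, and *Cox7a1* was 1.39% ± 0.16 and 0.944% ± 0.19 of the *Cox7a* set, both with an exact permutation p of 0.1. The *Cox7a* set holds *Cox7a2l*, which took 69.0% of it in Control and 62.8% in LS1. Without *Cox7a2l*, a choice made after seeing the data, *Cox7a1* was 4.59% ± 1.03 (SD, n = 3) of *Cox7a1* and *Cox7a2* together in Control and 2.58% ± 0.74 in LS1 (exact permutation p = 0.1). *Cox6a2* was 0.627% and 0.488% of the *Cox6a* pair (exact permutation p = 0.3). For subunit 6b the second form, *Cox6b2*, known from testis, took 13.01% ± 3.43 in Control and 16.4% ± 3.54 in LS1 (exact permutation p = 0.2). *Ndufa4l2*, a form induced by low oxygen, took 36.3% ± 6.68 of its pair with *Ndufa4* in Control and 36.4% ± 4.54 in LS1 (exact permutation p = 1). The share of *Cox4i2* was therefore the largest isoform difference in percentage points, and that of *Ndufa4l2* among the smallest. In all, 8 isoform sets were examined, with permutation p-values that are not adjusted for their number. In *Atp5g*, the ring subunit of complex V, *Atp5g3* held 98.0% and 97.8%.

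*Cox5a*, which faces the matrix, had 5029, 3757 and 3554 in Control and 4705, 4989.99 and 6098 in LS1. The groups overlapped (log2 fold change 0.36, SE 0.17, adjusted p = 0.385). *Cox7b* had a single low library, Control replicate 2 at 6279, where the other 5 lay between 9686 and 15209.

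Complex V, the ATP synthase, was measured through 17 nuclear genes, *Atp5s* among them, with a median of -0.05, and 2 were lower at an unadjusted p under 0.05. The values of *Atp5k*, a membrane subunit at the face where the enzyme forms dimers, were 8430.1, 7441 and 10206 in Control and 6124, 5404 and 6820.3 in LS1. *Atp5o*, the subunit that ties the head of the enzyme to its side stalk, had 7435, 8014 and 8799.8 in Control and 5484, 5458 and 6945 in LS1. Neither gene had overlapping groups, with log2 fold changes of -0.50 (SE 0.15, adjusted p = 0.250) and -0.44 (SE 0.14, adjusted p = 0.261). *Atp5o* shares exonic sequence with *D430001F17Rik* and *Gm15976* on the opposite strand, and 41.6% of its stretches of 50 bases also occur in another gene.

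The catalytic subunits of the head were close to 0. *Atp5a1* had a log2 fold change of 0.03 (SE 0.13) and *Atp5b* one of -0.07 (SE 0.15), with *Atp5b* at 96377, 87372 and 90835 in Control and at 76443, 81981 and 104788 in LS1. Small subunits had log2 fold changes of both signs, *Atp5e* of the central stalk at -0.27 and *Atp5mpl* of the membrane part at 0.29, each without overlap of the groups and with unadjusted limma p-values of 0.0767 and 0.0595. The median of complex V was 0.00 without LS1 replicate 2.

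The 13 genes of the mitochondrial genome shared the library in which they were highest, and none of them separated the groups. All 13 had their highest value in LS1 replicate 1, and their lowest values fell in Control replicate 2 (4 genes), LS1 replicate 2 (5) or LS1 replicate 3 (4). *mt-Cytb*, the cytochrome b of complex III, was counted at 72232, 59468 and 86576 in Control and at 116486, 58370.0 and 63021 in LS1. One LS1 library was thus above all Control libraries while another was below them all. The log2 fold change of 0.07 (SE 0.25) was within its error, and the adjusted p-values of the 13 genes were between 0.699 and 0.999. Relative to the Control mean, their median per library was -0.03, -0.18 and 0.20 on the log2 scale in Control and 0.64, -0.19 and -0.19 in LS1. The nuclear members had medians of 0.03, -0.12 and 0.11 in Control and -0.18, -0.20 and 0.10 in LS1, so in LS1 replicate 1 the 2 genomes stood on opposite sides of the Control mean.

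**Figure D3:**
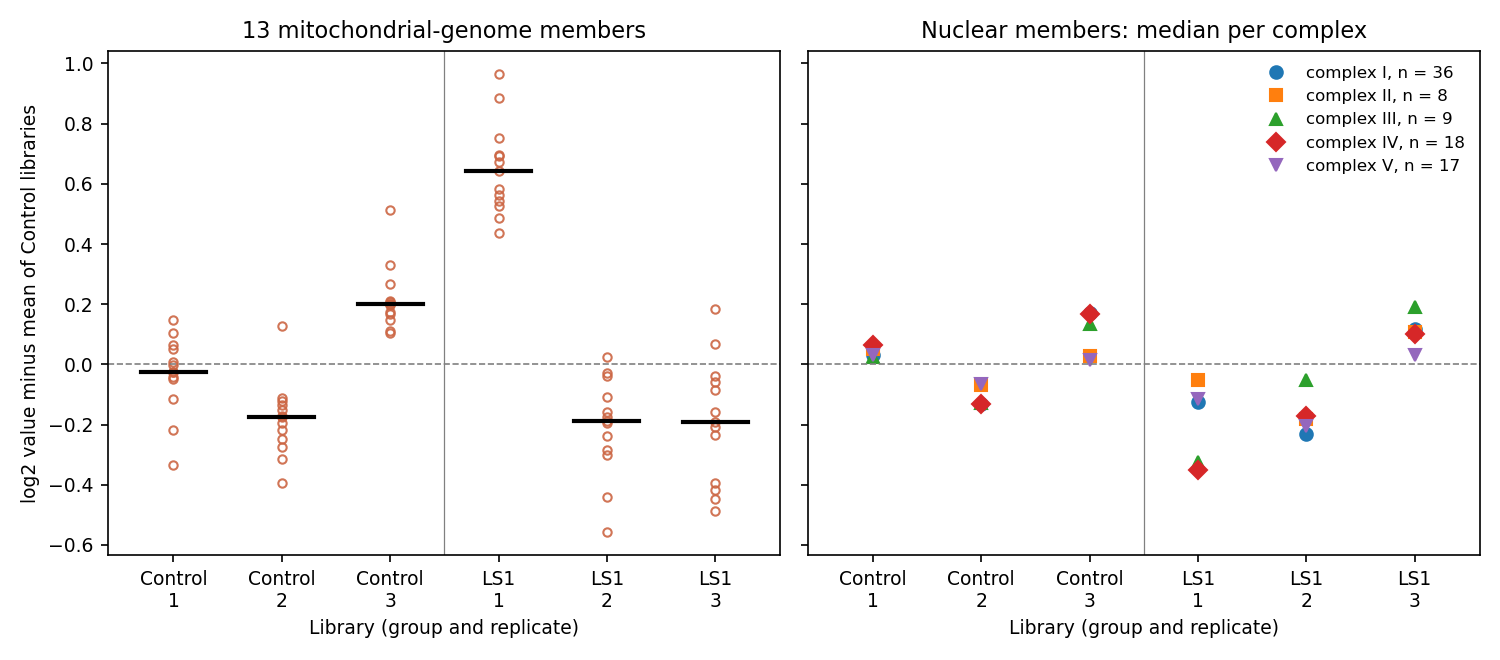
Log2 value of each library minus the mean log2 value of the 3 Control libraries (y axis), by library (x axis). At left, circles are the 13 mitochondrial genes and bars their median, and at right, symbols are medians of the nuclear genes of each complex. LS1 replicate 1 has a mitochondrial median of 0.64 while its nuclear medians lie between -0.35 and -0.05.

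As a share of all reads, the mitochondrial members took 0.458%, 0.377% and 0.509% in Control and 0.665%, 0.380% and 0.421% in LS1. The nuclear members took 1.01%, 0.939% and 1.05% in Control and 0.868%, 0.887% and 1.06% in LS1. Neither share separated the groups. The ratio of mitochondrial to nuclear reads was 0.455, 0.401 and 0.484 in Control and 0.766, 0.429 and 0.398 in LS1, so that only LS1 replicate 1 left the Control range by a wide margin. The mean ratio was 0.447 in Control and 0.531 in LS1, or 0.413 in LS1 without that library. The 2 mitochondrial ribosomal RNAs, which are no members, were also highest in that library, at 0.125% of the reads against 0.0622% to 0.0822% in the other 5. That library also had the lowest summed skeletal muscle and erythroid markers of the 6. What set it apart was not tested.

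By complex, the mitochondrial genes had median log2 fold changes of 0.03 for complex I (7 genes), 0.07 for complex III (1), 0.17 for complex IV (3) and 0.14 for complex V (2). The nuclear genes of the same complexes had medians of -0.10, -0.08, -0.16 and -0.05. In each of the 4 the mitochondrial median was above the nuclear one. Leaving out LS1 replicate 1 put all mitochondrial genes together at -0.17 and all nuclear genes at -0.05, which reversed that order. Without that library the mitochondrial medians were -0.24 for complex I, -0.25 for complex III, -0.05 for complex IV and -0.11 for complex V, and 12 of the 13 genes were below 0. A correction for GC content, which is low in the mitochondrial genes (31.9% to 41.1%), gave medians of -0.08 and -0.10.

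A large part of the reads of some mitochondrial genes was assigned to the copies on chromosome 1. Reads within sequence that a gene and its copy share cannot be told apart. The shares below therefore describe how reads were assigned and do not measure the RNA made from each place. For *mt-Co3*, a core subunit of complex IV, 54.5%, 52.1% and 53.4% of the normalised reads of gene and copy together were on the copy in Control, and 49.5%, 47.8% and 47.9% in LS1. *mt-Nd3* had 84.01%, 85.8% and 86.3% of them on its copy in Control and 82.3%, 79.7% and 81.5% in LS1. In both genes every LS1 library had a smaller share on the copy than every Control library. *mt-Nd4* ran the other way, with 5.06%, 5.30% and 4.35% in Control and 6.93%, 6.97% and 6.17% in LS1. Of the 7 pairs compared, these 3 differences had a two-sided exact permutation p of 0.1, the smallest this design allows before any adjustment. For the remaining 4 of the 7 pairs the groups overlapped, with mean shares from 3.45% for *mt-Co1* to 51.6% for *mt-Nd4l*.

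How reads that match more than 1 place were counted is not given in the sources used here, so a value of these genes is that of the reads assigned to them. Adding the copy moved the log2 fold change of *mt-Nd3* from -0.15 to -0.51 (exact permutation p = 0.3) and that of *mt-Co3* from 0.20 to 0.05. It moved that of *mt-Nd4* only from -0.09 to -0.06. Other copies were not added to the share of reads. *Gm13340* shared 40.3% of the stretches of 35 bases of *mt-Co1* and had a mean value of 4019. *Gm13339*, on chromosome 2, held 1.55% of the normalised reads of *mt-Nd2* and copy in Control and 1.24% in LS1. With the 7 copies on chromosome 1 added, the mitochondrial share of reads was 0.504%, 0.419% and 0.562% in Control and 0.730%, 0.414% and 0.458% in LS1, with the same highest library. *mt-Nd1* and *mt-Cytb* had 0% of their stretches of 50 bases in any other gene, and they too were highest in LS1 replicate 1.

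**Figure D4:**
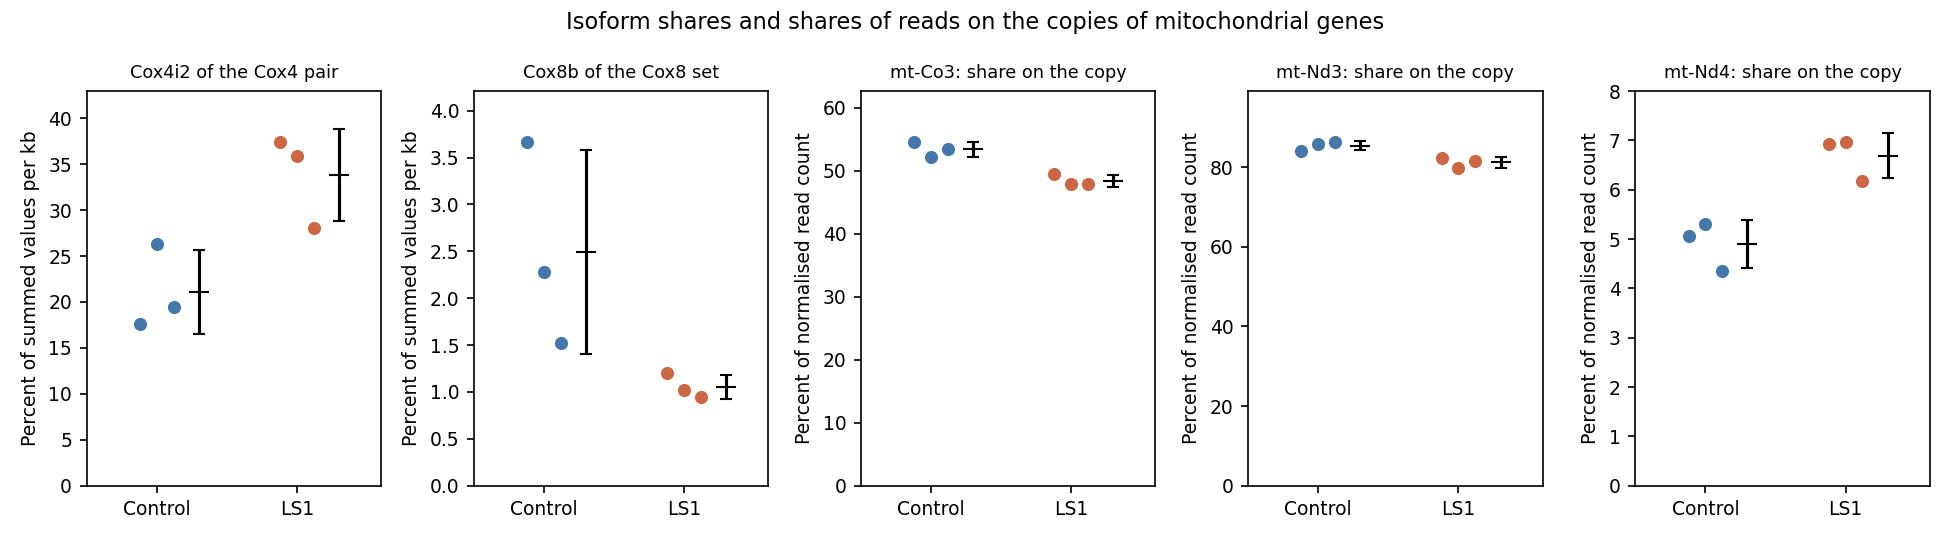
Shares in percent (y axes, from 0) in each of the 3 Control (blue) and 3 LS1 (orange) libraries, with mean ± SD in black. The 2 panels at left show *Cox4i2* and *Cox8b* as a share of their isoform sets per kb, and the 3 at right the share of reads assigned to the chromosome 1 copy of *mt-Co3*, *mt-Nd3* and *mt-Nd4*. Reads within sequence that gene and copy share cannot be told apart, so the 3 at right describe read assignment. In all 5 panels the groups do not overlap, each with an exact permutation p of 0.1.

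Levels were compared between genes per kb of merged exon length, as the mean over the 6 libraries. The highest were *mt-Atp8* at 131368, *mt-Nd1* at 69840.4, *mt-Cytb* at 66456 and *mt-Co1* at 60979.7, followed by the nuclear *Atp5b* at 21155. The lowest were *Atp5g2* at 87.9, *Sdhaf3* at 97.0, *Cox6a2* at 103, *Ndufb4* at 124 and *Cox8b* at 194. *Gm10175*, a processed copy of *Atp5g2*, held 90.8% of the normalised reads of gene and copy together in Control and 89.6% in LS1, so the level of *Atp5g2* is that of the reads assigned to it. *mt-Atp8*, of 204 bases, overlaps *mt-Atp6*, of 681 bases, on the same strand. Their mean values before division by length were 26799 and 5150. How reads in the overlap were counted is not given in the sources used here, so the top rank of *mt-Atp8* may depend on it. *mt-Atp8*, *mt-Nd1* and *mt-Cytb* had 0% of their stretches of 50 bases in any other gene, and *mt-Co1* had 51.1%. With stretches of 35 bases it was 5.29% for *mt-Atp8*, 0% for *mt-Nd1*, 3.69% for *mt-Cytb* and 60.5% for *mt-Co1*. For *mt-Co2*, *mt-Atp6*, *mt-Co3*, *mt-Nd3* and *mt-Nd4l* the share with stretches of 50 bases was 98.0% to 100%. The levels of the mitochondrial genes, their order and their median are thus also those of the reads assigned to them. The median over the 13 mitochondrial genes was 16364 per kb and over the 88 nuclear genes 3199. The mitochondrial median is the value of *mt-Nd6*, which overlaps *mt-Nd5* on the opposite strand. Whether strand was used in the counting is not given, so this median may hold reads of *mt-Nd5*. With the longest transcript as length the same 5 genes were highest, while *Ndufb4* gave way to *Atp5g1* (202) among the lowest 5.

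Beside their mostly accessory class, the 14 lower nuclear members were compared with the others in length, GC content and position. Their longest transcripts had a median of 779 bases (360 to 4435), where the other 74 nuclear members had 1186 (419 to 6310), and their GC content a median of 51.5% against 49.7%. They lay on 11 chromosomes. Across the 88 nuclear members, the log2 fold change had a Pearson correlation of 0.25 with the log2 of transcript length and a Spearman correlation of 0.23, and with GC content these were -0.20 and -0.24. These are descriptions across genes that share the same 6 libraries. Around the threshold of 0.05 the unadjusted limma p-values were 0.0487 for *Cox7a1* and 0.0494 for *Cox5a* just inside, and 0.0595 for *Atp5mpl* and 0.0625 for *Uqcrfs1* just outside.

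Other genes of mitochondrial function were listed for comparison, and in these lists 0 genes passed the adjusted threshold by limma, while DESeq2 passed 7 of the cytosolic ribosomal genes and 0 of the rest. At an unadjusted p under 0.05, 5.86% of all genes tested were lower and 7.08% higher. Of 45 tested assembly factors of the respiratory complexes, 1 was lower (*Cmc2*, -0.45) and 3 higher (*Ttc19*, *Cmc1* and *Tmem70*, 0.40 to 0.43) at an unadjusted p under 0.05, with a median of -0.04. Of 17 genes of the citric acid cycle and pyruvate dehydrogenase, *Idh3g* was lower (-0.50) and *Dld* higher (0.32), with a median of -0.06. The 31 genes of mitochondrial transcription and biogenesis had a median of 0.02, with *Nrf1* and *Pprc1* lower at that threshold (6.45%, near the share over all genes tested). *Nrf1*, the factor whose motif type is given above, had 6382, 5479 and 5396 in Control and 3560.5, 4874 and 4894 in LS1, without overlap (log2 fold change -0.38, SE 0.16, adjusted p = 0.337). A link between the level of *Nrf1* and that of the members was not tested.

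Carriers and exchangers (22 genes) had a median of 0.04, and 2 were lower (9.09%), *Coq8a* at -0.42 and *Atpif1*, the inhibitor of complex V, at -0.86. Of the 23 protein import genes 2 were lower (8.70%), *Timm13* at -0.97 and *Timm17b* at -0.52, with a median of -0.11. The 77 tested genes of the mitochondrial ribosome had a median of -0.10, and 6 were lower and 0 higher (7.79% lower). The 100 tested genes with a symbol of cytosolic ribosomal proteins had a median of -0.27, and 25 were lower and 1 higher. By their symbols, 10 of these are kinase genes (*Rps6k*), among them the 1 that was higher, *Rps6ka6*, and the other 90 had a median of -0.30, with 25 lower (27.8%) and 0 higher. The nuclear members, with 15.9% lower and a median of -0.07, stood between the 2 ribosomal lists, with or without the kinases, in the share of genes lower at an unadjusted p under 0.05.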

How the data were processed

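RNA-seq values of 6 libraries, 3 Control and 3 LS1, were analysed. The authors used HISAT2 2.0.2 for mapping to GRCm38 and featureCounts 1.4.6 for counting. The deposited table is a signal per gene, which is the authors' read count over a library size factor, and holds no columns of comparisons. Dividing by the value of 1 read (0.870 to 1.11) gave whole reads for 100% of the values (within a relative distance of 1e-06), although in Control replicate 1 a step of 1.01 was too close to 1 to be certain.

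The comparison took the 19308 genes whose recovered reads averaged 20 or more, and was made on log2(value + 1) with limma 3.58.1 in R 4.3.3, with mean-variance trend and robust moderation. Benjamini-Hochberg adjustment was over all genes tested, with a threshold of 0.05. Because 1 is added, fold changes of low genes are understated. The study's methods give 3 separate mice per group. Exact permutation tests of single values were two-sided. Symbols came from GENCODE M21 (99.1% of identifiers).

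The members, lists and roles were chosen with earlier results of these data known. Genes were named by a rule: the mitochondrial genes, per complex the 3 largest differences in each direction, members under an unadjusted p of 0.05 without overlap, isoform sets, the 5 highest and 5 lowest per kb, and list genes under an unadjusted p of 0.05. *Ndufb7*, *Ndufv3*, *Ndufs1*, *Ndufs8*, *Ndufv1*, *Atp5a1* and *Mrpl36* were named after their values were seen. The 20 alternative fits included edgeR 4.0.16, DESeq2 1.42.0 and limma-voom on recovered reads, other scalings, filters and pseudocounts, offsets for GC content and length (loess span 0.3), a replicate block and each library left out. The code was tested on simulated data. Protein sequences were not used here.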

Additional observations from a re-analysis of the deposited data

How the results depend on the processing

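Of the 20 alternative fits, 1 (edgeR on the 5 libraries other than Control replicate 1) and, beside these fits, the sums with copies, the *Cox7a* set without *Cox7a2l* and the ribosomal list without kinases were chosen after seeing the data. Genes called among all tested numbered 14 in the limma fit, 456 by DESeq2, 45 without a filter on low values, 9 with a mean of at least 100 reads, 9 with the GC content offset, 9 with the length offset, 8 by limma-voom, 7 by edgeR, 5 by edgeR on 5 libraries, and 5 to 324 when 1 library was left out, the highest without LS1 replicate 3. Members called numbered 3 by DESeq2, 1 without a filter on low values (*Ndufs6*, adjusted p = 0.0488), 0 to 4 when 1 library was left out, and 0 in all other fits. Members lower at an unadjusted p under 0.05 numbered 7 to 24 when 1 library was left out, and those higher 1 to 6. Those higher numbered 1 by edgeR, DESeq2, limma-voom, TMM normalization, scaling to the total reads and the length offset, and 4 by edgeR on 5 libraries. The cause of these differences was not tested, beyond the fewer genes or libraries that some fits hold. The medians of the mitochondrial, nuclear, complex, core and accessory sets moved by less than 1 SD of the libraries' medians in every fit. These SDs were 0.16 to 0.47, each larger than the distance of its set's median from 0, so a change of sign could fall within them. The mitochondrial median was -0.08 with the GC content offset and ranged from -0.17 to 0.25 when 1 library was left out. That of complex III was 0.11 without LS1 replicate 1. All 13 mitochondrial genes changed sign in at least 1 fit, and none of the 14 genes named by the rule under an unadjusted p of 0.05 did. These 14 were picked by their p in the same 6 libraries, so their steady sign is no independent support. They include *Cox4i2* and *Cox5a*, which were higher, and leave out *Ndufb7* and *Ndufv3*. TMM and scaling to the total reads moved the median of all genes by -0.01.

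With the title letter as a replicate block, 0 members and 12 genes in all were called, and 20 members were lower and 3 higher at an unadjusted p under 0.05. Correlations of deviations between samples with the same letter were 0.05, 0.02 and 0.22, so the samples share a letter and no pairing was assumed. What limited the number of genes called was not tested.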
